A study of Mus musculus with 8 samples.

Results

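The 10 genes described here belong to the interleukin-7 receptor pathway of mouse pro-B cells: the receptor chains Il7r and Crlf2, the transcription factors Stat5a, Stat5b, Stat3 and Stat6, and the feedback genes Cish, Socs1, Socs2 and Socs3. They were picked by name for their place in the pathway, with earlier results of these data known. They are 10 genes of 55487 in the count table, and all 10 passed the filter on low counts. RNA had been sequenced from 8 libraries labelled as pro-B cells, the bone marrow stage at which B lineage precursors rearrange their heavy chain genes. Of these, 4 carried the genotype label CD25_KO, meaning cells without CD25, the interleukin-2 receptor alpha chain encoded by Il2ra, and 4 were labelled WT. Strain, age, the allele and the number of animals are not given in the sources used here, and each p-value reflects the scatter among these libraries, part of which may be technical.

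Interleukin-7 binds a receptor made of Il7r and the common gamma chain, and in mouse pro-B cells this signal sustains survival and proliferation. Crlf2 pairs with Il7r to form the receptor for thymic stromal lymphopoietin. Both receptors work through JAK kinases that phosphorylate STAT proteins, with STAT5 as the main factor in early B cells, and STAT proteins in turn switch on Cish and the Socs genes, whose products dampen receptor and JAK activity.

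Several properties of the libraries bear on the values that follow. Il2ra itself had 193 ± 35.9 CPM (counts scaled to library size; mean ± SD, n = 4) in wild type, beside 181 ± 43.1 CPM in the labelled knockout (edgeR quasi-likelihood test, adjusted p = 0.849), and counts summed over all exons do not show whether part of the gene is missing, so the knockout label could not be checked. Of 12 pro-B markers 11 exceeded 1 CPM in all 8 libraries. Summed erythroid markers (10 genes) lay between 2270 and 6538 CPM in wild type, highest in wild type 4, and between 246.3 and 1789 CPM in the labelled knockout, without overlap. Summed neutrophil markers (10 genes, with Mpo at 0 in at least 1 library) ran from 255.8 to 559.3 CPM in wild type, beside from 120.8 to 485.5 CPM in the labelled knockout, lowest in labelled knockout 1 and 3. Summed natural killer and innate lymphoid markers (10 genes, Tbx21 at 0 in at least 1 library) did not overlap either. They lay at 33.54 to 45.53 CPM in wild type against 8.636 to 31.45 CPM in the labelled knockout, lowest in labelled knockout 3. Of the 9 tested, 3 were higher and 6 lower in the labelled knockout. For single genes, the groups did not overlap in 6.79% of all tested. The part of these other cells in the members' values was not tested. The sum of 4 Y-linked genes was at least 483.3 CPM in wild type 2 and labelled knockout 2 and 4, and at most 2.789 CPM in the other 5 libraries. Wild type 2 also held Xist, the transcript of the inactive X chromosome, at 60.02 CPM. The libraries differed by GC content as well: the median log2 deviation of the 10% of genes richest in GC minus that of the poorest 10% was -0.70 in wild type 2, -0.31 in wild type 1 and -0.12 in wild type 3, against 0.12 in wild type 4 and 0.03 to 0.41 in the labelled knockout. In whole libraries, fewer cells of a type and less RNA per cell cannot be told apart.

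The members spanned more than 2 orders of magnitude in level per length. Il7r was the most abundant at 116 ± 6.79 CPM per kb of exon (mean ± SD over 8 libraries), followed by Stat6 at 61.7 ± 7.49 CPM per kb. Stat3 with 13.7 ± 5.17, Stat5b with 12.01 ± 3.87, Crlf2 with 6.02 ± 3.67 and Stat5a with 5.86 ± 1.18 CPM per kb came next, and the ranges of neighbours in this order overlapped. Among the feedback genes Socs1 had 2.47 ± 1.83 and Socs2 1.35 ± 0.565 CPM per kb, with overlapping ranges. Cish at 0.374 ± 0.0890 and Socs3 at 0.169 ± 0.139 CPM per kb were lowest and also overlapped. The steps from Il7r to Stat6, from Stat6 to Stat3 and from Socs2 to Cish were the 3 at which the ranges over the libraries did not overlap. Counts followed the same order at the extremes, from 23499 to 32842 fragments per library for Il7r down to 4 to 66 for Socs3.

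**Figure D1:**
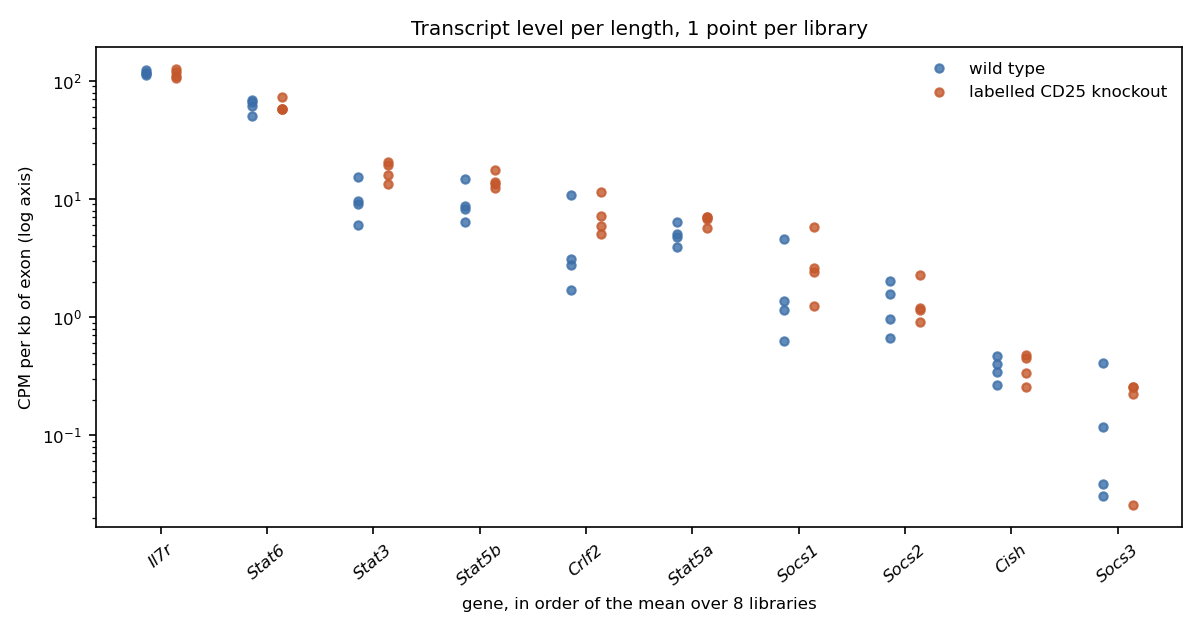
Level of each gene per kb of summed exon length in every library (vertical log axis, CPM per kb), with wild type in blue and the labelled knockout in orange. Il7r and Stat6 form tight groups at the top, and the points of Socs3 spread the widest at the bottom.

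RefSeq promoter windows on GRCm38, from 250 bases before to 50 bases after a transcript start, were given for 9 of the 10 members (11 windows in all). They were searched on both strands for TTCNNNGAA, the core sequence bound by STAT dimers, which reads the same way on either strand, and for the same ends TTC and GAA with 4 bases between them, the spacing preferred by Stat6. The first was found in windows of 3 members, and the second in those of 0 members. Among 32851 promoter windows 8.3% held TTCNNNGAA and 6.95% held the wider form. The 3 windows with a match are shown because they belong to the receptor and to the 2 feedback genes of lowest level, with the matches in capitals.

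Cish, chr9:107296409-107296708, plus strand: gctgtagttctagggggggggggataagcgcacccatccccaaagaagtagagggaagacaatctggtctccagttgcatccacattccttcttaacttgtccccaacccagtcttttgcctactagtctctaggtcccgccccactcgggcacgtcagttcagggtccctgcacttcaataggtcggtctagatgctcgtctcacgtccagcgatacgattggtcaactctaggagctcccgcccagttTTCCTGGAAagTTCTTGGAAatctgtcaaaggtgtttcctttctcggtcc
Socs3, chr11:117969317-117969616, minus strand: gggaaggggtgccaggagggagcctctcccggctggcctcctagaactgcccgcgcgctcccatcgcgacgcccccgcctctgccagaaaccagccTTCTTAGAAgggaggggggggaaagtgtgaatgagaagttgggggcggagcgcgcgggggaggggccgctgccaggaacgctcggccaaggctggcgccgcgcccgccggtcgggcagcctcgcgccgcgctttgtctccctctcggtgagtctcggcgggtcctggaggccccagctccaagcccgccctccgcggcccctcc
Il7r, chr15:9529827-9530126, minus strand: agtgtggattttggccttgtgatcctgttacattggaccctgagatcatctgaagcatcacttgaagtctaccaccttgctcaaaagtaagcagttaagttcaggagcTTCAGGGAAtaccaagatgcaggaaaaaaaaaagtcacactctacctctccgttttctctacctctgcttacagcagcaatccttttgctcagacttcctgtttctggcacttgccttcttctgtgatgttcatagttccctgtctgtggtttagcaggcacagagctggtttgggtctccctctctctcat

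Cish held 2 separate matches, TTCCTGGAA with its first base at position 1, the transcript start, and TTCTTGGAA at position 12. Socs3 held TTCTTAGAA at position -154 and Il7r held TTCAGGGAA at position -142. A match is a description of the letters and not a measured binding site. The Il7r window contained 45.7% G and C and the Socs3 window 73.3%, beside a median of 52.7% over all windows.

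In the comparison of the labelled knockout with wild type over all 8 libraries, 0 of 18884 genes passed an adjusted p of 0.05 (0% called; edgeR quasi-likelihood test with Benjamini-Hochberg adjustment, smallest adjusted p 0.391), and so 0 of the 10 members did. DESeq2 called 6 genes, of which 0 were members, and limma-voom called 0. An unadjusted p under 0.05 was found for 3 members, Stat5a, Stat5b and Stat3, all higher in the labelled knockout, against 12.6% of all genes in either direction and 5.53% in that direction. Of the members, 9 had a log2 fold change above 0, as had 50.4% of all genes, and their median was 0.37 beside 0.0033 for all genes. That median was 0.14 without labelled knockout 1 (7 above 0), 0.72 without wild type 4 and 0.15 with the trend on GC content removed. The groups overlapped for all 10 members, while they did not overlap for 6.79% of all genes.

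The interleukin-7 receptor chain itself was level across the libraries. Il7r (ENSMUSG00000003882.5, GRCm38 chromosome 15, 9505788 to 9530176, minus strand) had 548.3, 575.1, 524.4 and 541.8 CPM in wild type 1 to 4, and 510.4, 555.4, 498.4 and 592 CPM in labelled knockout 1 to 4. The groups overlapped, and the highest and lowest libraries of all 8 were both labelled knockout. In the labelled knockout relative to wild type the log2 fold change of Il7r was -0.02 ± 0.08 (SE; adjusted p = 0.927), with a 95% interval of the fold from 0.864 to 1.12. Its transcripts held 40.6% G and C, below the 10th percentile of expressed genes (41.8%).

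Crlf2, the second chain of the thymic stromal lymphopoietin receptor, was scarce and varied far more (ENSMUSG00000033467.12, chromosome 5, 109554709 to 109558993, minus strand). It had 4.12, 2.52, 4.69 and 16.3 CPM in wild type 1 to 4 and 17.2, 7.50, 8.84 and 10.9 CPM in labelled knockout 1 to 4. Wild type 4 stood with the labelled knockout, and the other 3 wild type libraries lay below all 4 of them. Crlf2 had a log2 fold change of 0.68 ± 0.53 (adjusted p = 0.586), and the interval of the fold ran from 0.700 to 3.67. Without labelled knockout 1 it had 0.38. At 65.3% G and C, Crlf2 transcripts were the richest among the members and above the 90th percentile of expressed genes (56.9%).

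The STAT genes divided by level and by spread. Stat3, which transmits signals of the interleukin-6 family among others, had 91.0, 57.1, 86.8 and 147 CPM in wild type 1 to 4 and 196, 127, 187 and 152 CPM in labelled knockout 1 to 4. Wild type 4 again exceeded labelled knockout 2, and the other 3 wild type libraries lay below every labelled knockout library. Its log2 fold change of 0.79 ± 0.26 was the largest among the members (unadjusted p = 0.0125, adjusted p = 0.391), a fold of 1.73 with an interval from 1.16 to 2.59.

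Stat5b, one of the paired genes for STAT5, showed a like split with 48.0, 35.6, 45.9 and 82.7 CPM in wild type, beside 98.5, 69.3, 77.8 and 74.4 CPM in the labelled knockout. Labelled knockout 1 was highest and wild type 4 second, above the remaining 3 labelled knockout libraries. This gave a log2 fold change of 0.59 ± 0.24 (unadjusted p = 0.0335, adjusted p = 0.391).

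Stat5a, its close paralogue, had 34.3, 28.0, 36.0 and 45.8 CPM in wild type, beside 48.6, 40.9, 50.8 and 50.2 CPM in the labelled knockout. Only labelled knockout 2 fell within the wild type range. The log2 fold change was 0.40 ± 0.16 (unadjusted p = 0.0283, adjusted p = 0.391). Of all 50-base stretches in Stat5a transcripts 8.52% also occurred in another gene, almost all in Stat5b, and in Stat5b 11% were shared. Counting alignments with several matches leaves the split between Stat5a and Stat5b uncertain, and the share of fragments affected was not measured. Per kb, Stat5b exceeded Stat5a 1.80, 1.64, 1.64 and 2.32 times in wild type 1 to 4 and 2.61, 2.18, 1.97 and 1.91 times in labelled knockout 1 to 4. These ratios overlapped between groups, with means of 1.85 ± 0.324 and 2.17 ± 0.315 (SD, n = 4).

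Stat6, the factor activated by interleukin-4 and interleukin-13, was the most abundant STAT member and differed between groups by less than its spread (ENSMUSG00000002147.18, chromosome 10, 127642986 to 127660957, plus strand). It had 268, 302, 294 and 221 CPM in wild type, beside 255, 253, 324 and 256 CPM in the labelled knockout. Wild type 4 was the lowest of all 8 libraries here, the reverse of its place for Stat3 and Stat5b. Its log2 fold change was 0.004 ± 0.13 (adjusted p = 0.992), with an interval of the fold from 0.824 to 1.22.

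The genes Stat5b, Stat5a and Stat3 lie side by side on chromosome 11. Stat5b (ENSMUSG00000020919.11) occupies 100780731 to 100850724 on the minus strand, Stat5a (ENSMUSG00000004043.14) 100859351 to 100885169 on the plus strand and Stat3 (ENSMUSG00000004040.16) 100885098 to 100939540 on the minus strand. The starts of Stat5b and Stat5a face each other across 8626 bases, and the ends of Stat5a and Stat3 overlap by 72 bases, where counts without strand cannot be assigned to either gene. The 34 other tested genes within 500 kb of this cluster centred on a log2 fold change of 0.02 (their median), 18 above 0 and 16 below, and at an unadjusted p under 0.05 10 of them differed, 5 of these higher, beside the 12.6% and 5.53% of all genes given above.

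The feedback genes ranged from a highest value of 21.7 CPM for Socs2 down to 0.0733 CPM for Socs3, and 0 of the 4 passed the test. Socs1, a direct inhibitor of JAK kinases (ENSMUSG00000038037.5, chromosome 16, 10782240 to 10785536, minus strand), had 3.32, 1.82, 3.97 and 13.3 CPM in wild type, beside 16.9, 3.61, 7.65 and 6.96 CPM in the labelled knockout. Wild type 4 and labelled knockout 1 stood above the other 6 libraries. Socs1 had a log2 fold change of 0.65 ± 0.62 (adjusted p = 0.654), which was 0.11 without labelled knockout 1 and 1.54 without wild type 4.

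Socs2, best known for limiting growth hormone signalling (ENSMUSG00000020027.18, chromosome 10, 95385362 to 95417180, minus strand), had 15.1, 6.37, 9.19 and 19.3 CPM in wild type, beside 21.7, 11.4, 8.72 and 10.9 CPM in the labelled knockout. The same 2 libraries were highest, and 3 of the labelled knockout libraries lay within the wild type range. For Socs2 the log2 fold change was 0.08 ± 0.38 (adjusted p = 0.946). Its transcripts share 4.58% of their 50-base stretches with other genes, among them the annotated genes Gm9847 and Gm8000.

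Cish, the feedback gene most closely tied to STAT5 (ENSMUSG00000032578.7, chromosome 9, 107296026 to 107302784, plus strand), had 2.20, 2.59, 1.70 and 2.99 CPM in wild type, beside 2.91, 1.63, 3.07 and 2.15 CPM in the labelled knockout. The groups interleaved throughout, and Cish did not share the library order of Stat5a and Stat5b. The log2 fold change was 0.04 ± 0.27 (adjusted p = 0.962), on 76 to 167 fragments per library, with an interval of the fold from 0.679 to 1.55. Other annotated genes cover 11.5% of its exon bases.

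Socs3, which binds receptors of the interleukin-6 family (ENSMUSG00000053113.3, chromosome 11, 117966079 to 117970047, minus strand), had 0.336, 0.0882, 0.112 and 1.18 CPM in wild type, beside 0.742, 0.0733, 0.641 and 0.739 CPM in the labelled knockout. In wild type 2 and 3 and labelled knockout 2 these values rested on 5, 5 and 4 fragments. The log2 fold change was 0.34 ± 0.87 (adjusted p = 0.884), with an interval of the fold from 0.328 to 4.87. No difference was detected, and what made the interval this wide was not tested.

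**Figure D2:**
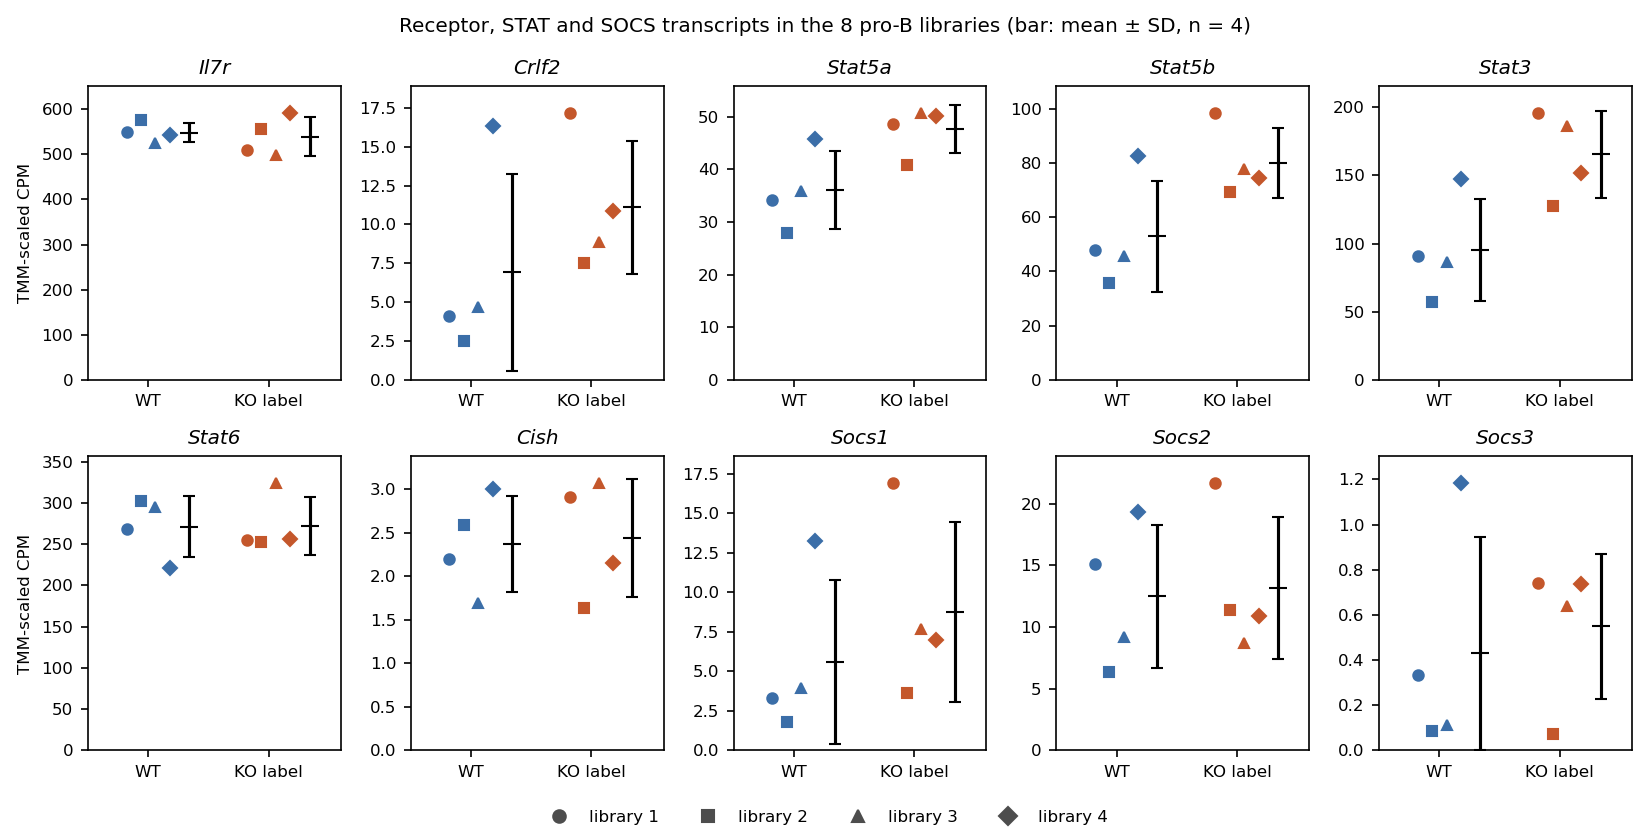
CPM of the 10 genes in each library (1 panel per gene, linear axis from 0), with marker shapes for library numbers and a bar for the mean ± SD of 4 libraries, cut at 0 for Socs3 in wild type. Il7r and Stat6 show no separation of the groups, whereas for Crlf2, Stat5b, Stat3 and Socs1 wild type 4 (diamond) sits apart from the other 3 wild type libraries.

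Wild type 4 was the highest wild type library for 8 of the 10 members, as it was for 33.3% of genes with at least 5 CPM. Its level relative to the mean of wild type 1 to 3 was 6.63 times for Socs3, 4.37 times for Socs1, 4.32 times for Crlf2, 1.92 times for Stat5b, 1.88 times for Stat3 and 1.40 times for Stat5a. For Il7r it was 0.986 times and for Stat6 0.766 times. Labelled knockout 1 was the highest of its group for 6 members, beside 28.8% of genes, and of all 8 libraries for Crlf2, Stat5b, Stat3, Socs1 and Socs2. Wild type 2 was the lowest of its group for 7 members, beside 39.9% of genes, and labelled knockout 2 was the lowest of its group for 8, beside 28.6% of genes. Those shares cover genes of at least 5 CPM, a level that the members Cish and Socs3 did not reach. All 4 of these libraries were also at the ends of the GC contrast in their groups: wild type 2 had the lowest and wild type 4 the highest in wild type, and labelled knockout 2 the lowest and 1 the highest in the other group. The part of GC content in these values was not tested beyond the fits described next.

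**Figure D3:**
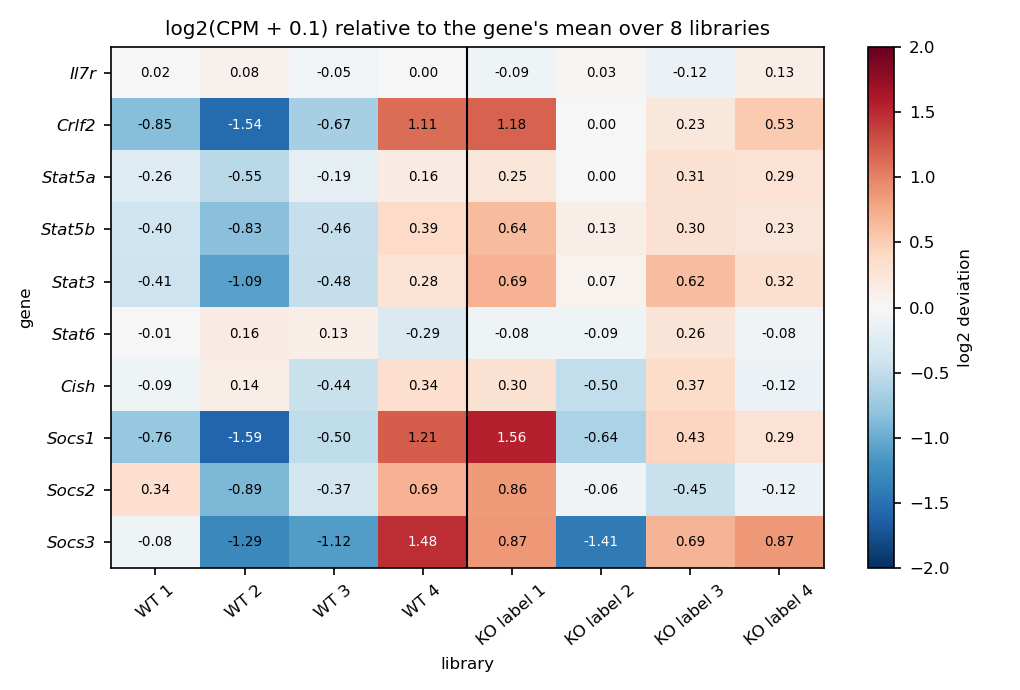
Deviation of log2(CPM + 0.1) from the mean over 8 libraries for each gene (rows) and library (columns; wild type left of the line), in colour and number. Crlf2, Stat5a, Stat5b, Stat3 and Socs1 are below their mean in wild type 1 to 3 and above it in wild type 4 and labelled knockout 1, while Il7r stays within -0.12 to 0.13.

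Without wild type 4, Crlf2, Stat5b and Stat3 were called higher in the labelled knockout, 3 of 10 members against 1.86% of 19506 genes called in either direction and 1.84% in that direction. Their log2 fold changes were 1.56 ± 0.32, 0.89 ± 0.16 and 1.08 ± 0.20, each with an edgeR adjusted p of 0.0493. This was also the smallest adjusted p of any gene in that fit, so the calls lay just under the threshold. Stat5a with 0.54 ± 0.14 (adjusted p = 0.0605) and Socs1 with 1.54 ± 0.48 (adjusted p = 0.104) did not pass. For Crlf2, Stat5a, Stat5b and Stat3 the 4 labelled knockout libraries all lay above wild type 1 to 3, which 14% of all genes did. Leaving out this library was listed as 1 of 8 single omissions; with any other library left out, 0 members were called. The 3 calls were lost in the same 7 libraries with a trend on GC content removed, where 0 of 19506 genes passed (0% called): Stat3 had 1.01 ± 0.19 and Stat5b 0.75 ± 0.14 (adjusted p = 0.055 each), and Crlf2 0.66 ± 0.21 (adjusted p = 0.101). They were also lost when labelled knockout 1 was left out as well, with 0 genes called and an adjusted p of 0.054 for each of the 3. Without wild type 4 alone, removing the GC trend moved the edgeR unadjusted p of Stat3 from 0.000288 to 0.000259. The unadjusted p went from 0.000227 to 0.000335 for Stat5b and from 0.000741 to 0.00984 for Crlf2.

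The Y-linked counts split the comparison into 2 parts. Among the libraries without them, Stat3 averaged 108 CPM in wild type 1, 3 and 4 and 191 CPM in labelled knockout 1 and 3, 1.77 times higher, and among those with them it had 57.1 CPM in wild type 2 and 139 CPM on average in labelled knockout 2 and 4, 2.44 times higher. The corresponding ratios were 1.498 and 2.02 for Stat5b, 1.29 and 1.63 for Stat5a, 1.55 and 3.64 for Crlf2, and 1.79 and 2.91 for Socs1. Il7r had 0.937 and 0.997 and Stat6 1.11 and 0.843. Stat3, Stat5b, Stat5a, Crlf2 and Socs1 were on average higher in the labelled knockout on both sides of this split. The second side rests on 1 wild type library, wild type 2, which held Xist as well. That library also had the lowest GC contrast of all 8, at -0.70 against 0.03 and 0.10 in labelled knockout 2 and 4. The share of all genes higher on both sides was not computed. Cish went opposite ways, with 1.301 and 0.729.

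With presence of Y-linked counts as a term over all 8 libraries, a model chosen after seeing the data, edgeR again called 0 of 18884 genes. Stat3 then had a log2 fold change of 0.98 ± 0.19 (adjusted p = 0.0687), Stat5b 0.73 ± 0.22 and Stat5a 0.48 ± 0.14 (adjusted p = 0.0935 each). With the term and without wild type 4, 5 members were called, all higher, against 16% of 19506 genes called in either direction and 11.9% in that direction. Stat3 had 1.18 ± 0.10 (adjusted p = 0.00155), Stat5b 0.95 ± 0.11 (adjusted p = 0.00207), Crlf2 1.68 ± 0.27 (adjusted p = 0.00407), Socs1 1.67 ± 0.33 (adjusted p = 0.00986) and Stat5a 0.58 ± 0.12 (adjusted p = 0.011). Because wild type 4 was the wild type library that departed most from the rest for these same genes, its omission narrows the spread against which they are tested.

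A trend on GC content fitted in each library moved the members unequally. With that trend removed over all 8 libraries, Crlf2 had a log2 fold change of 0.21 ± 0.31 and Stat5a of 0.21 ± 0.12, while Stat3 had 0.74 ± 0.24 and Stat5b 0.49 ± 0.21, and 0 of 18884 genes were called. With the Y-linked term as well, 1.13% of genes (0.334% higher) and 0 members were called. With the trend removed, the Y-linked term and no wild type 4, Stat3 (1.0957 ± 0.1047, adjusted p = 0.00259), Stat5b (0.79 ± 0.11, adjusted p = 0.00377) and Socs1 (1.19 ± 0.31, adjusted p = 0.0298) were called, against 15.9% of genes called in either direction and 9.72% called higher. Crlf2 (0.67 ± 0.21, adjusted p = 0.0577) and Stat5a (0.28 ± 0.11, adjusted p = 0.113) were not. Over the all-library fit and the 7 fits that combine the GC trend, the Y-linked term and the omission of wild type 4, Il7r had log2 fold changes from -0.0615 to 0.0482 and Stat6 from -0.2535 to 0.0063. Leaving out labelled knockout 1 and 3, the 2 of that group without Y-linked counts, gave 5 members above 0 and 5 below, with Stat3 at 0.54.

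**Figure D4:**
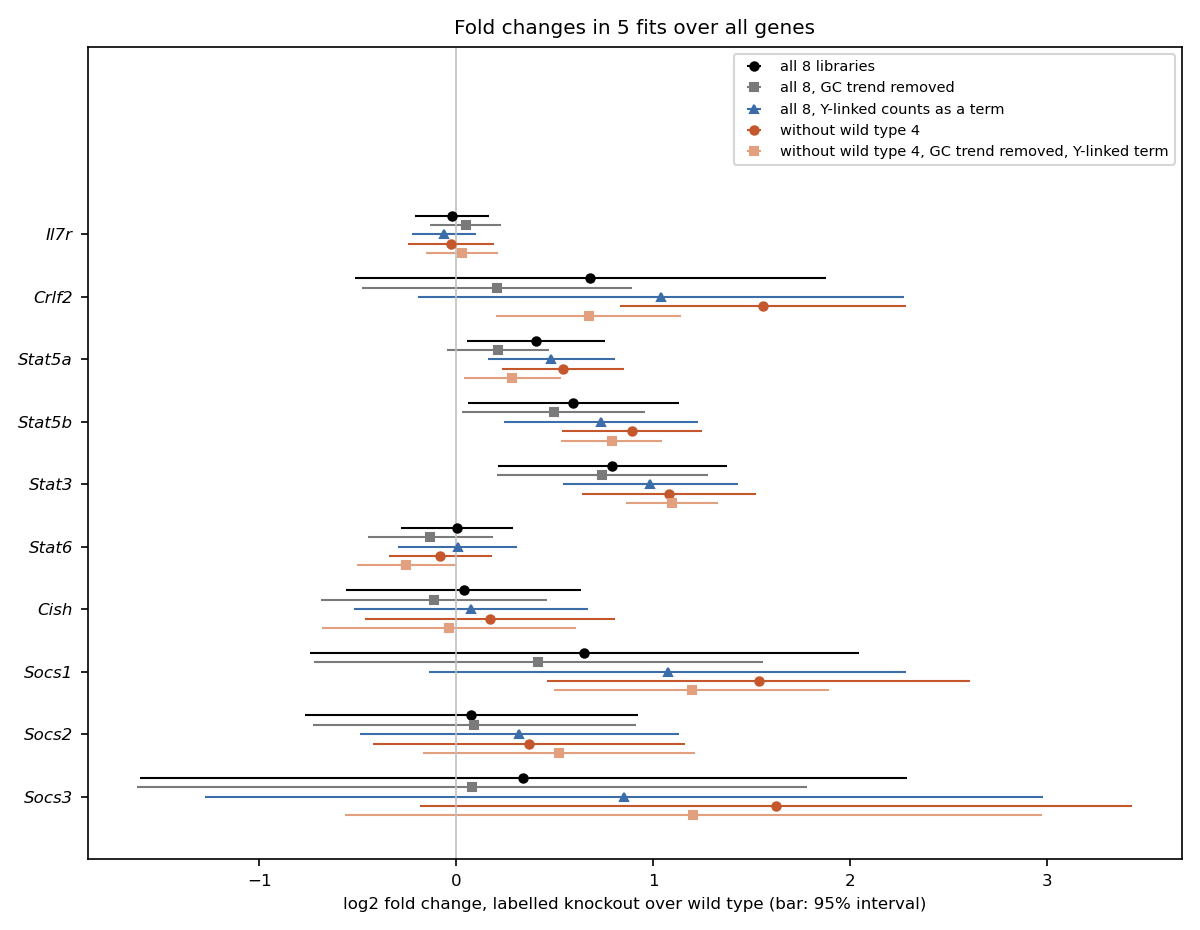
Log2 fold change of the labelled knockout over wild type with its 95% interval for each gene (horizontal axis) in 5 fits, separated by colour and marker. The intervals of Stat5b and Stat3 lie above 0 in all 5 fits, those of Il7r and Cish include 0 in all 5, and those of Crlf2 exclude 0 only in the fits without wild type 4.

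The other genes of the pathway were read from 6 lists holding 56 genes. In the 8 libraries 0 of them passed the test. Among 11 other receptor chains, ligands and JAK kinases, 10 were tested, 7 had a log2 fold change above 0 and the median was 0.39. Il4ra, the chain through which interleukin-4 reaches Stat6, had 99.98 ± 10.14 CPM in wild type, beside 131.5 ± 10.02 CPM in the labelled knockout (log2 fold change 0.40 ± 0.10, unadjusted p = 0.0036), and its groups did not overlap. The JAK kinase Tyk2 had 51.1 ± 8.72 and 68.8 ± 9.17 CPM (0.43 ± 0.15, unadjusted p = 0.0182), also without overlap. Groups did not overlap for 6.79% of all genes, and Il4ra and Tyk2 were named for the smallest unadjusted p values of the list. With the GC trend removed Il4ra and Tyk2 had 0.21 and 0.25, and the list's median was 0.23. Il2rb, named after its values were seen, had the largest change of the list, in the other direction. Its log2 fold change over all 8 libraries was -1.13 ± 0.41 (edgeR unadjusted p = 0.0204, adjusted p = 0.391), and -1.25 ± 0.42 with the GC trend removed. Il2rb was lowest in labelled knockout 3, at 1.22 CPM, as were the summed natural killer and innate lymphoid markers. The part of those cells in its values was not tested.

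Of the other STAT genes, Stat2, which acts downstream of interferon, had 77.3 ± 16.3 and 110 ± 14.2 CPM (0.51 ± 0.17, unadjusted p = 0.012) without overlap between groups, as for 6.79% of all genes. Stat4 had a log2 fold change of -0.38 ± 0.19. All 4 other Socs genes lay above 0, with a median of 0.32. Socs5 had 0.32 ± 0.15 and Socs6 0.39 ± 0.26.

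Among 12 other brakes on JAK and STAT signalling, such as phosphatases, PIAS proteins and adaptors, 7 lay above 0 and the median was 0.06, or -0.02 with upper quartile factors and -0.01 with the GC trend removed. The adaptor Sh2b3, a negative regulator of JAK2, had 42.4 ± 2.61 and 54.5 ± 10.2 CPM (0.36 ± 0.14), a difference that changed sign to -0.10 with the GC trend removed and to -0.21 without wild type 4 as well. The ubiquitin ligase Cbl had a log2 fold change of 0.37 ± 0.15. Among 16 genes known as STAT5 targets 10 lay above 0, with a median of 0.18, which came to 0.08 with the GC trend removed, and to 0.07, 0.10 and 0.008 on leaving out labelled knockout 1, labelled knockout 3 or both. The list includes Il2ra. Its genes were not divided into activated and repressed ones, so the median is no measure of STAT5 output. The survival gene Mcl1 had 0.31 ± 0.11 and the kinase Pim2, at 121 ± 78.5 and 271 ± 92.3 CPM, had 1.16 ± 0.45. Among 10 regulators of the Il7r gene 9 lay above 0, with a median of 0.33, beside -0.02 for Il7r itself. These regulators were likewise not divided into activators and repressors. Ebf1, a B lineage transcription factor, had 0.40 ± 0.13, and Foxo1, an activator of Il7r, had 81.7 ± 3.13 and 112 ± 24.4 CPM (0.46 ± 0.15). All 12 genes named for the smallest unadjusted p in their list had an adjusted p of at least 0.391.

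**Figure D5:**
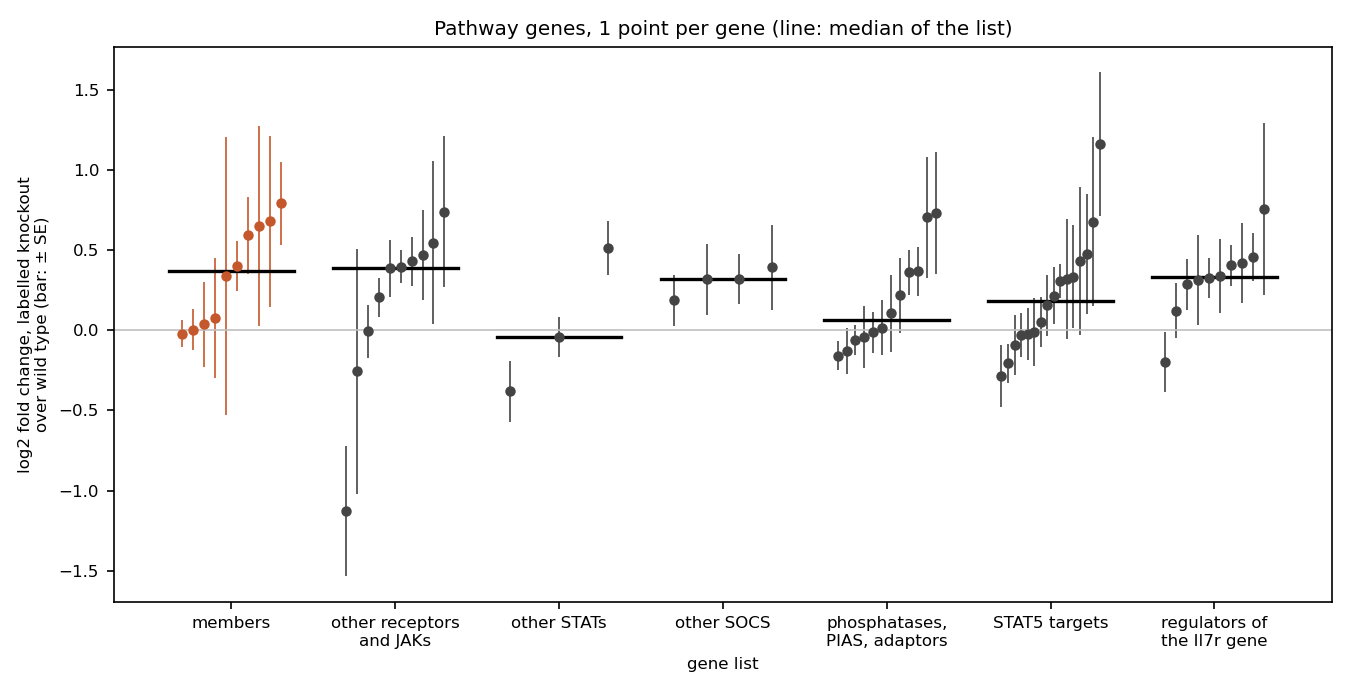
Log2 fold change of each tested gene with its SE (vertical axis), grouped into the 10 members (orange) and the 6 further lists (grey), with a line at each list's median. The medians of the members, the other receptor chains and JAK kinases, the other Socs genes and the Il7r regulators lie between 0.32 and 0.39, and single genes spread on both sides of 0.

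The genes whose profiles over the 8 libraries were nearest to 3 of the members were found by the root mean square difference of centred log2(CPM + 0.1) values, among 8697 protein-coding genes of at least 5 CPM for Il7r. Nearest to Il7r were the RNA helicase Ddx27 at 0.0368, Gdi2, which regulates Rab proteins, at 0.0412, and the splicing factor Hnrnph2 at 0.0430, against a deviation of 0.0786 for Il7r around its own mean. Nearest to Cish were Ypel1 at 0.174, Pdpr at 0.181 and the phosphate transporter Slc20a2 at 0.188, against its own 0.323. For Socs3 they were the nucleotide hydrolases Entpd4b at 0.507 and Entpd4 at 0.516, near-identical copies whose counts are uncertain, and Zfp777 at 0.523, against 1.07.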

How the data were processed

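The deposited values are raw fragment counts per gene which, per the file headers, the authors obtained with featureCounts 2.0.1 on exons of GENCODE M25, paired, counting multi-mapping alignments and without a strand setting. The table also gives exon lengths per the file headers. The submitters' processing notes name mm10 as the build, the aligner STAR 2.7.7a and GATK 4.1.9.0, the last without a stated role. Trizol extraction and a SMARTER kit are named in the labels' protocols.

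Library totals were 43974037 to 57988772 counts, and counting error alone did not account for the differences within any of the 12 same-group pairs (smallest chi-square divided by its degrees of freedom: 25.2). Names came from GENCODE M21 for 55227 genes; 260 stayed unnamed. The table held 0 columns of other samples. Genes passing filterByExpr (18884) were TMM-scaled and compared by the two-sided quasi-likelihood test of edgeR 4.0.16 (robust glmQLFit, then glmQLFTest) in R 4.3.3, genotype as the only term, Benjamini-Hochberg adjustment over all tested genes at 0.05. Values are log2 fold change ± SE (from the quasi-likelihood F value), with 95% intervals. GC trends were removed by loess (span 0.5). The method was tested on simulated data. DESeq2 1.42.0 and limma 3.58.1 served as alternatives.

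The members and gene lists were chosen with earlier results of these data known. Besides the 10 members and Il2ra, the genes named are those past the test in each list, the 2 with the smallest unadjusted p in each list and the 3 nearest profiles of Il7r, Cish and Socs3; any other is said to be chosen after its values were seen. Libraries were classed by Y-linked counts at a minimum of 5 CPM. The alternatives with GC trends, Y-linked counts, or labelled knockout 1 and wild type 4 left out together were chosen after seeing the data.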

Additional observations from a re-analysis of the deposited data

Results flagged for a closer look

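In 20 groups of 4 libraries, 1 for each gene and genotype label, a library stood far from its nearest neighbour in 3. Chance gives about 1 in 20 for independent groups with normal spread. These groups share the same 8 libraries, so the count cannot show an excess. Crlf2 had 16.31 CPM in wild type 4, a gap of 0.843 of the group's range, past the 95% critical value of Dixon's test. Stat6 had 323.7 CPM in labelled knockout 3, with a gap of 0.958 of the range. Socs3 had 0.07332 CPM in labelled knockout 2, with a gap of 0.849 of the range, on 4 fragments.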

How the results depend on the processing

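Of 24 alternatives, 7 were added after seeing the data. Over them the members gave 239 values: 190 kept direction and side of the threshold, 38 changed sign and 11 newly passed. Stat5a, Stat5b, Stat3 and Crlf2 changed sign in 0 of their 24 alternatives; Socs3 had no value under the filter of at least 1 CPM in 4 libraries. The cause of each change was not tested.

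The count of genes called (0) became 6 with DESeq2's Wald test, 0 to 363 with 1 library left out (363 without wild type 4), 213 with the Y-linked term and the GC trend removed, 3112 with the Y-linked term and no wild type 4, and 3107 in those libraries with the term after removing the GC trend. Genes at an unadjusted p under 0.05 (2388) became 3763 with limma-voom, 1195 to 4277 with 1 library left out, 497 without labelled knockout 1 and 3, 4330 with the GC trend removed and no wild type 4, 4646 with the Y-linked term, 5935 with it and no wild type 4, 4370 with it and the GC trend removed, and 5842 with all 3. Members called (0) became 0 to 3 with 1 library left out, 5 with the Y-linked term and no wild type 4, and 3 after also removing the GC trend. Members at an unadjusted p under 0.05 (3) became 1 to 5 with 1 library left out, 0 without labelled knockout 1 and 3, 5 without labelled knockout 1 and wild type 4, and 5 without wild type 4 with the GC trend removed, with the Y-linked term, or with both.

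Among sign changes, Il7r had 0.0158 without a count filter, 0.0277 with limma-voom, 0.0478 without labelled knockout 1 and 3, 0.0478 with the GC trend removed, 0.0482 without wild type 4 as well, 0.0213 with the GC trend removed and the Y-linked term, 0.0299 with both and no wild type 4, and -0.07 to 0.0348 with 1 library left out. Stat6 had -0.0957 with upper quartile factors, -0.0074 with the stricter filter, -0.0854 with limma-voom, -0.1136 without labelled knockout 1 and 3, -0.0722 without labelled knockout 1 and wild type 4, -0.1324 with the GC trend removed, -0.2506 without wild type 4 as well, -0.0743 with the Y-linked term and no wild type 4, -0.1496 with the term and the GC trend removed, -0.2535 with all 3, and -0.0915 to 0.0953 with 1 library left out. Cish had -0.0543 with upper quartile factors, -0.3491 without labelled knockout 1 and 3, -0.1145 with the GC trend removed, -0.0363 without wild type 4 as well, -0.0965 with the Y-linked term and the GC trend removed, -0.0374 with all 3, and -0.0931 to 0.2285 with 1 library left out. Without labelled knockout 1 and 3, Socs1 had -0.0880, Socs2 -0.1720 and Socs3 -0.0849. With 1 library left out, Socs2 ranged from -0.2788 to 0.3696. Upper quartile factors moved the median of all genes to -0.09.

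With a replicate block 0 genes were called, 3057 had an unadjusted p under 0.05, and Stat3 had 0.86. Whether equal numbers pair the libraries was not settled. Correlations of same-numbered deviations were -0.115, 0.609, 0.294 and 0.0133, and 2 of 4 wild type libraries correlated best with their own number.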

Other observations

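Among the 56 listed pathway genes outside the members, 4 were called higher without wild type 4, where 1.84% of 19506 tested genes were. These 4 are named after their values were seen. Spi1, which encodes the transcription factor PU.1, had 27.4, 18.3, 32.9 and 113 CPM in wild type 1 to 4 and 133, 51.5, 67.1 and 72.3 CPM in labelled knockout 1 to 4. Wild type 4 and labelled knockout 1 stood above the other 6 libraries, as for Socs1. Ptpn1, a phosphatase acting on JAK2 and Tyk2, had 61.2, 40.2, 73.5 and 166 CPM in wild type, beside 187, 104, 139 and 135 CPM in the labelled knockout. The cyclin gene Ccnd3 had 265, 157, 267 and 661 CPM in wild type, beside 604, 375, 424 and 473 CPM in the labelled knockout, and there wild type 4 was the highest of all 8 libraries. Pias4, a SUMO ligase, had 21.3, 13.01, 26.0 and 54.4 CPM in wild type, beside 58.4, 34.2, 43.2 and 51.0 CPM in the labelled knockout. Over all 8 libraries 0 of the 4 passed the edgeR test, and without wild type 4 each had an adjusted p of 0.0493 and a log2 fold change of 1.63 ± 0.32 for Spi1, 1.28 ± 0.23 for Ptpn1, 1.22 ± 0.25 for Pias4 and 1.03 ± 0.21 for Ccnd3. All 4 calls were lost with the GC trend removed in the same 7 libraries (adjusted p = 0.055 for Spi1 and Ptpn1, 0.0552 for Pias4 and 0.0553 for Ccnd3), and 0 genes were called when labelled knockout 1 was also left out. With the Y-linked term and no wild type 4, 16% of all genes were called, 11.9% higher. So were 4 of 10 other receptor chains and JAK kinases (1 lower), 1 of 3 other STATs and 2 of 4 other Socs genes. Also called higher were 4 of 12 brakes, 5 of 16 STAT5 targets and 6 of 10 Il7r regulators. After also removing the GC trend, these counts were 3 (1 lower), 1, 2, 3, 4 and 7, beside 9.72% of all genes called higher.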
